A study of Mus musculus with 9 samples.

Results

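The guanylate-binding proteins (GBPs) of the mouse were measured in bone marrow mature megakaryocytes (mMKs) after ionising radiation (IR). Members were taken by gene name from the array files, namely Gbp2, Gbp2b, Gbp3, Gbp4, Gbp5, Gbp6, Gbp7, Gbp8, Gbp9 and Gbp10, and all 10 were found among the 37074 gene names of the arrays. They are read by 12 non-control probes, 1 for each gene except Gbp5 and Gbp8, which have a pair each, and every probe has 1 spot per array. Of these, 11 probes for 9 genes could be tested, which required a signal well above background on each array of 1 or more groups. The Gbp2b probe was not well above background on any of the 9 arrays.

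The study compared mMKs of male mice without IR (Ctrl) with mMKs taken 1 and 3 days post IR (1 dpi and 3 dpi) with 5 Gy of gamma rays, using 3 arrays per group and 9 in all. The study's methods state that control mice were sham-irradiated. The labels give no strain, genotype or age. The study's methods name wild-type C57BL/6 mice without an age for them, so the animals are taken here only as unmodified males. According to those methods, red blood cells in flushed marrow were lysed, and mMKs were enriched by bead selection for CD41 and then for CD42d. Both are surface proteins of the megakaryocyte and platelet lineage. Such a selection enriches cells, so other marrow cells can be present. The labels describe a different donor for each of the 3 experiments at each time, while they give neither the number of mice per array nor any pooling.

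GBPs are large GTPases of the dynamin superfamily whose genes are switched on by interferons, chiefly through gamma-activated sites and interferon-stimulated response elements in their promoters. The proteins assemble on the membranes of bacteria and of pathogen vacuoles, act together with the immunity-related GTPases, and help to trigger inflammasomes that depend on caspase-11 (gene Casp4) or AIM2. Megakaryocytes carry interferon receptors and express interferon-stimulated genes, and the family forms a pair of gene clusters in the mouse, on chromosomes 3 (Gbp2, Gbp2b, Gbp3, Gbp5, Gbp7) and 5 (Gbp4, Gbp6, Gbp8, Gbp9, Gbp10).

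Each level given here is the log2 intensity of a probe minus the 75th percentile of its array, so a value of 0 is the signal that 75% of the probes of that array do not exceed. Differences are log2 fold changes from a limma fit over 44317 probes, and a probe counts as called where the change reached 2-fold and the adjusted p was under 0.05. Levels of different probes are not read as differences in abundance, since probes differ in how strongly they bind. All arrays shared the same 62976 spots, of which 3671 were controls and 0 were saturated. The 75th percentile differed by group: in log2 intensity it was 10.02 to 10.63 in Ctrl, 9.31 to 9.42 at 1 dpi and 10.34 to 10.53 at 3 dpi. The amount subtracted was therefore smallest at 1 dpi. Ctrl replicate 1 stood apart from the others: it was the only array on its slide, and 69.1% of its spots were well above background, against 79.5% and 80.8% on the other Ctrl arrays, 72.3% to 75.6% at 1 dpi and 81.6% to 81.8% at 3 dpi. The median change of all probes tested was 0.22 at 1 dpi against Ctrl, 0.07 at 3 dpi against Ctrl and -0.13 at 3 dpi against 1 dpi, and for family probes values relative to it are given where they alter a call.

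At 1 dpi, 6 of the 11 tested family probes were called higher than in Ctrl and 0 were called lower. Over all 44317 probes, 11.6% were called higher, 3.01% were called lower and 14.6% were called in either direction. The 6 were the probes of Gbp2, Gbp4, Gbp6, Gbp7 and Gbp9 and 1 of the Gbp5 pair, and their clusters shared them evenly, with 3 on chromosome 3 and 3 on chromosome 5. At 3 dpi against Ctrl, 3 family probes were called higher and 0 lower, beside 6.58% higher, 1.86% lower and 8.44% in either direction over all probes. These were the probe of Gbp6 and both probes of Gbp8. Between the time points, 2 family probes were called higher at 3 dpi than at 1 dpi, both of Gbp8, and 3 were called lower, those of Gbp2 and Gbp9 and 1 of the Gbp5 pair. Across all probes 3.74% were called higher, 5.03% lower and 8.77% in either direction in that comparison. The comparisons at 1 and 3 dpi share the same Ctrl arrays. Groups without overlap were common over all probes: 67.2% at 1 dpi against Ctrl, 47.5% at 3 dpi against Ctrl and 64.6% at 3 dpi against 1 dpi. Of the 11 tested family probes, 9, 9 and 11 had no overlap in that order.

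**Figure D1:**
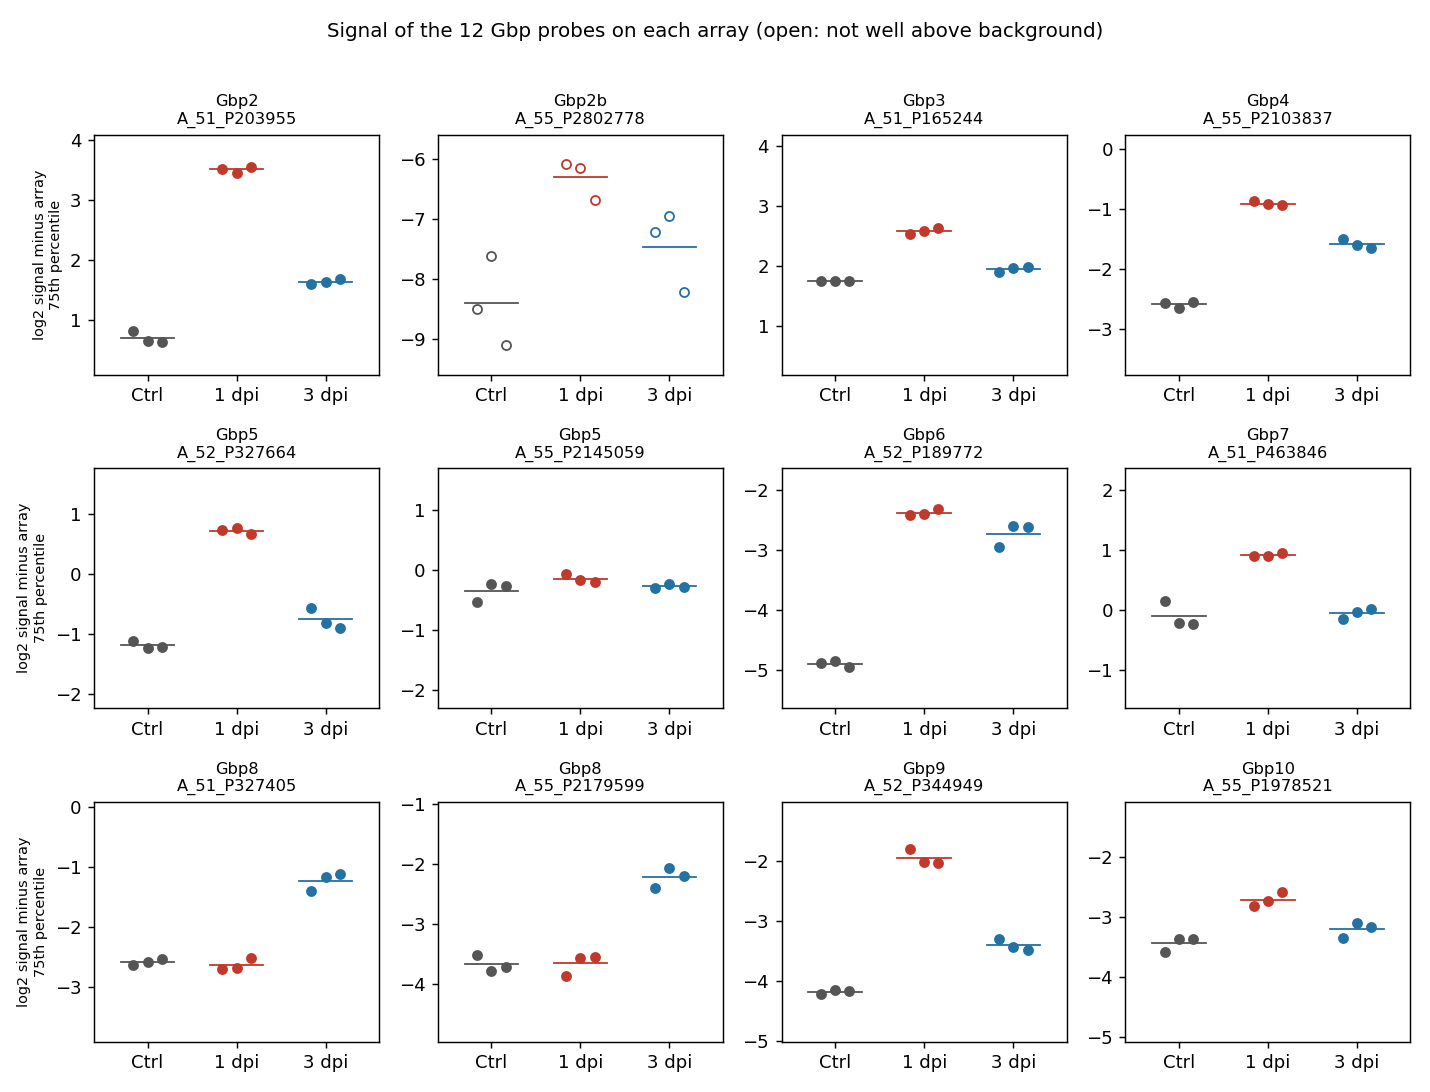
Log2 signal minus the array's 75th percentile for the 12 Gbp probes, with 1 point per array, a line at the mean of each group of 3 and open points where the spot was not well above background. All panels span 4 log2 units, and group means were highest at 1 dpi for every probe except those of Gbp8, which were highest at 3 dpi.

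Gbp2 is the member that the study singled out, a GTPase that carries a lipid anchor at its end and is drawn to pathogen membranes. Its probe A_51_P203955 read 0.82, 0.65 and 0.63 in Ctrl, 3.52, 3.46 and 3.56 at 1 dpi, and 1.60, 1.63 and 1.69 at 3 dpi. All 3 arrays at 1 dpi were high, those at 3 dpi lay between them and Ctrl, and no groups overlapped. The rise at 1 dpi was 2.81 (SE 0.07, adjusted p = 3.7e-07 by limma), or 7.03-fold. From 1 to 3 dpi it fell by 1.87 (SE 0.07, adjusted p = 7.7e-06). At 3 dpi the difference from Ctrl was 0.94 (SE 0.07, adjusted p = 5e-05), a 1.92-fold excess that missed the 2-fold threshold.

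Among the other chromosome 3 members, Gbp5, a promoter of NLRP3 and AIM2 inflammasome assembly, gave different results with its probes. Probe A_52_P327664 read -1.11, -1.23 and -1.22 in Ctrl, 0.74, 0.76 and 0.66 at 1 dpi, and -0.56, -0.81 and -0.90 at 3 dpi. Signal was high on the 3 arrays at 1 dpi and low on the rest, without overlap between any of the groups. A rise of 1.91 at 1 dpi (SE 0.09, adjusted p = 5e-06) gave way to a fall: it fell by 1.48 between 1 and 3 dpi (SE 0.09, adjusted p = 3.7e-05), while the difference at 3 dpi from Ctrl was 0.43 (SE 0.09, adjusted p = 0.0098). Probe A_55_P2145059 read -0.54, -0.23 and -0.27 in Ctrl, -0.07, -0.17 and -0.21 at 1 dpi, and -0.30, -0.23 and -0.28 at 3 dpi. Those 9 values lay close together, apart from the lower Ctrl replicate 1, and Ctrl and 3 dpi overlapped. Its differences were 0.20 at 1 dpi (SE 0.09, adjusted p = 0.11), 0.07 at 3 dpi (adjusted p = 0.58) and -0.12 between the time points (adjusted p = 0.32), and none was called. The sign of those differences changed with the scaling: with arrays scaled to their medians they were -0.12, -0.05 and 0.07. A_52_P327664 is listed under a RefSeq transcript of Gbp5 and stands near position 2491 of its transcript, while A_55_P2145059 is listed without one, at position 1714 of another transcript, and is the brighter of the pair on average over the 9 arrays, although not at 1 dpi. The deposited gene-level row of Gbp5 follows A_52_P327664, within 0.00735 log2 units on every array after rescaling.

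Gbp7, another chromosome 3 member, linked to the oxidative killing of bacteria, read 0.15, -0.22 and -0.23 in Ctrl, 0.90, 0.90 and 0.95 at 1 dpi, and -0.15, -0.03 and 0.01 at 3 dpi. The 3 arrays at 1 dpi were above all others, and Ctrl overlapped with 3 dpi, with Ctrl replicate 1 the highest of those 6. The rise at 1 dpi was 1.01 (SE 0.11, adjusted p = 0.00021), just past the 2-fold threshold, and it did not reach that threshold relative to the median of all probes (0.79), with arrays scaled to their medians (0.70), with normexp and quantile normalization (1.00 after rounding), or without Ctrl replicate 2 (0.95) or Ctrl replicate 3 (0.95). At 3 dpi the difference from Ctrl was 0.04 (SE 0.11, adjusted p = 0.80), and from 1 dpi it was -0.97 (SE 0.11, adjusted p = 0.00038).

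Gbp3, of the same cluster, read 1.75 on all 3 Ctrl arrays, 2.53, 2.59 and 2.64 at 1 dpi, and 1.90, 1.97 and 1.99 at 3 dpi. No groups overlapped, and the order was 1 dpi, 3 dpi and Ctrl, from high to low. The difference at 1 dpi was 0.84 (SE 0.06, adjusted p = 2.6e-05), 1.79-fold and so under the threshold for a call, and 0.20 at 3 dpi (SE 0.06, adjusted p = 0.03). Gbp2b, long known as Gbp1, stayed below the level called well above background, with signals of -9.11 to -7.62 in Ctrl, -6.69 to -6.08 at 1 dpi and -8.22 to -6.95 at 3 dpi. The 3 arrays at 1 dpi were the brightest, but no fold change is given where both groups lie in the background.

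Of the chromosome 5 probes called higher at 1 dpi, that of Gbp6 fell least from 1 to 3 dpi. Probe A_52_P189772 read -4.88, -4.85 and -4.95 in Ctrl, -2.41, -2.40 and -2.31 at 1 dpi, and -2.95, -2.60 and -2.61 at 3 dpi. All 6 irradiated arrays were far above the 3 Ctrl arrays, and the 3 dpi arrays lay just under those at 1 dpi. The rise of 2.52 at 1 dpi (SE 0.10, adjusted p = 2e-06) was followed by 2.17 at 3 dpi against Ctrl (SE 0.10, adjusted p = 3.3e-06), and 3 dpi differed from 1 dpi by -0.35 (SE 0.10, adjusted p = 0.024), which was not called. Changes of this dim probe were smaller when normexp background correction and quantile normalization were used together (1.29 and 1.14), with both still called, than with quantile normalization alone (2.17 and 1.98).

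Gbp4, also on chromosome 5, read -2.56, -2.64 and -2.54 in Ctrl, -0.87, -0.92 and -0.93 at 1 dpi, and -1.50, -1.60 and -1.64 at 3 dpi. The groups stood in 3 separate steps, with 3 dpi in the middle. It rose by 1.67 at 1 dpi (SE 0.06, adjusted p = 1.7e-06). At 3 dpi the difference from Ctrl was 0.999 before rounding (SE 0.06, adjusted p = 1.8e-05), a hair under 2-fold, so it was not called, and it passed the threshold without Ctrl replicate 1 (1.01), Ctrl replicate 3 (1.02), 3 dpi replicate 2 (1.01) or 3 dpi replicate 3 (1.03).

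Gbp8 moved at another time than the rest. Probe A_51_P327405 read -2.63, -2.59 and -2.53 in Ctrl, -2.70, -2.69 and -2.51 at 1 dpi, and -1.39, -1.16 and -1.12 at 3 dpi. Probe A_55_P2179599 read -3.51, -3.78 and -3.71 in Ctrl, -3.86, -3.56 and -3.55 at 1 dpi, and -2.40, -2.06 and -2.19 at 3 dpi. On both probes Ctrl and 1 dpi overlapped, and the 3 arrays at 3 dpi were above all 6 others. At 3 dpi against Ctrl the rises were 1.36 (SE 0.09, adjusted p = 2.3e-05) and 1.45 (SE 0.13, adjusted p = 0.0001), and at 3 dpi against 1 dpi they were 1.41 (SE 0.09, adjusted p = 3.9e-05) and 1.44 (SE 0.13, adjusted p = 0.00014). Their differences at 1 dpi were -0.05 (adjusted p = 0.67) and 0.01 (adjusted p = 0.95), and the sign of the last was negative with arrays scaled to their medians (-0.31) and in the deposited table (-0.32). With normexp and quantile normalization together A_55_P2179599 changed by 0.93 at 3 dpi and was no longer called.

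A_51_P327405 also lists an accession under which the array carries a probe of Gbp11, a family gene outside the 10 members. That probe, A_55_P2042813, was looked at only after the Gbp8 values were known. It read -1.84, -1.38 and -1.41 in Ctrl, -1.22, -1.08 and -1.25 at 1 dpi, and -0.02, 0.08 and 0.09 at 3 dpi. Its 3 arrays at 3 dpi were likewise the highest, with changes of 1.59 from Ctrl (SE 0.13, adjusted p = 5.7e-05) and 1.23 from 1 dpi (SE 0.13, adjusted p = 0.00025). The other Gbp8 probe, A_55_P2179599, lists Gbp8 alone.

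The probe named Gbp9, A_52_P344949, is 1 of several that do not single out a gene. The array file lists it with transcripts of 4 members, Gbp10, Gbp4, Gbp6 and Gbp9, so its signal may come from any of them. It is shown, 5′ to 3′, because a result called for Gbp9 rests on these 60 bases, which the array file places on chromosome 5 of the assembly mm9, minus strand, from 105523238 to 105523479, a span that is 182 bases longer than the probe.
Gbp9 probe A_52_P344949: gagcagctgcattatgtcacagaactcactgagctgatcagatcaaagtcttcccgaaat

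That shared probe read -4.22, -4.16 and -4.17 in Ctrl, -1.81, -2.02 and -2.04 at 1 dpi, and -3.31, -3.43 and -3.48 at 3 dpi. The groups did not overlap, and 3 dpi lay nearer to Ctrl than to 1 dpi. The rise at 1 dpi was 2.23 (SE 0.08, adjusted p = 1.4e-06), after which it fell by 1.45 from 1 to 3 dpi (SE 0.08, adjusted p = 2.2e-05), while 3 dpi differed from Ctrl by 0.78 (SE 0.08, adjusted p = 0.00025). With normexp and quantile normalization the rise was 1.30, still called, and the fall was -0.96, not called. The Gbp10 probe, A_55_P1978521, lists Gbp10 and Gbp6. It read -3.58, -3.36 and -3.37 in Ctrl, -2.81, -2.74 and -2.58 at 1 dpi, and -3.35, -3.10 and -3.17 at 3 dpi. Its 1 dpi arrays were highest, while Ctrl (up to -3.36) and 3 dpi (from -3.35) nearly met. The difference of 0.73 at 1 dpi (SE 0.10, adjusted p = 0.00076) was not called, nor was that of 0.23 at 3 dpi (SE 0.10, adjusted p = 0.13). Between the 66 pairs of family probes, the longest run of bases in common was 9, so no probe is a copy of another.

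**Figure D2:**
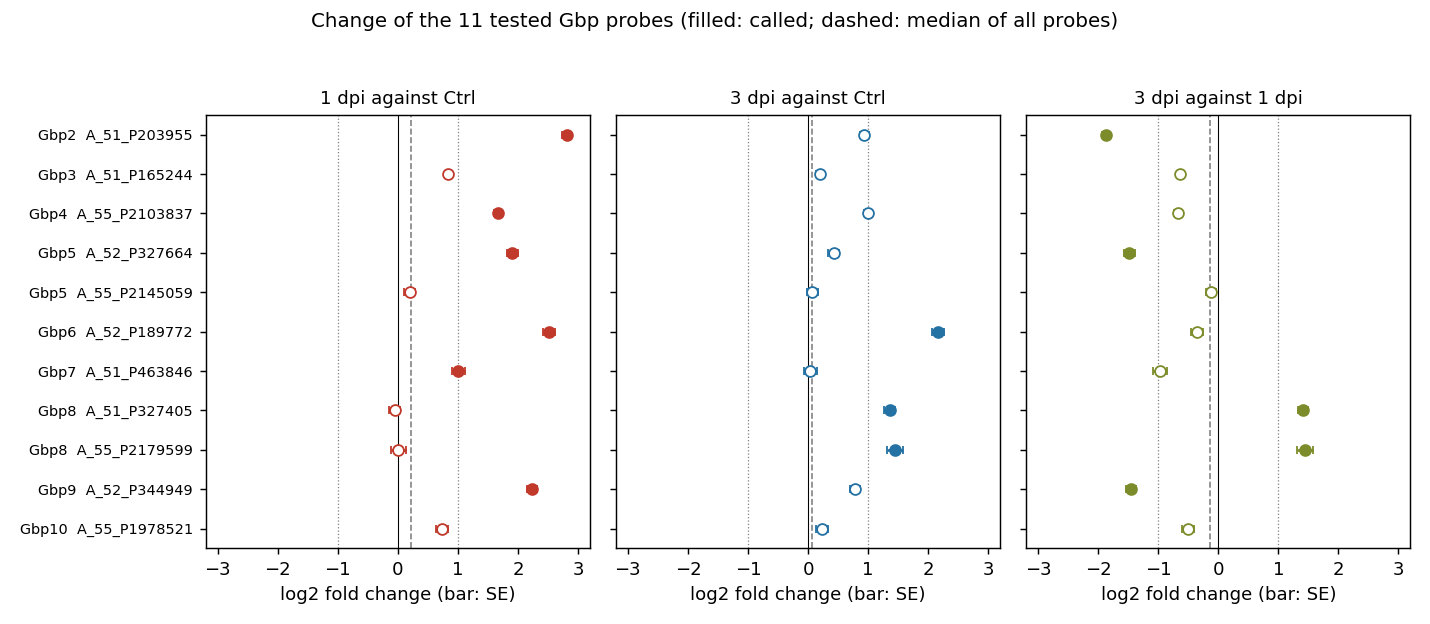
Log2 fold change of the 11 tested Gbp probes in each comparison, with SE as bars, filled points for called probes, dotted lines at a 2-fold change and a dashed line at the median of all probes. The values ran from -0.05 to 2.81 at 1 dpi, from 0.04 to 2.17 at 3 dpi against Ctrl, and from -1.87 to 1.44 at 3 dpi against 1 dpi.

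The family median was 1.01 at 1 dpi, 0.78 at 3 dpi against Ctrl and -0.63 at 3 dpi against 1 dpi, beside 0.22, 0.07 and -0.13 over all probes. By adjusted p alone, 8 of 11 differed from Ctrl at 1 dpi, 8 at 3 dpi, and 10 differed between the time points, beside 55.7%, 32.8% and 46.1% of all probes. Over the 9 arrays the Pearson r with the Gbp2 probe was 0.991 for Gbp3, 0.985 for Gbp5 A_52_P327664, 0.994 for the probe named Gbp9 and 0.951 for Gbp4. It was 0.831 for Gbp6, 0.644 for Gbp5 A_55_P2145059, and -0.214 and -0.174 for the Gbp8 probes. These r describe 3 groups of 3 arrays, so they mostly restate the order of the group means.

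Among the 5122 probes of other genes called higher at 1 dpi, the 5 most like Gbp2 over the 9 arrays were Tnf (r 0.9987), Bax (r 0.9983), Oasl2 (r 0.9981), Sqstm1 (r 0.9979) and 4930599N23Rik (r 0.9977). Oasl2 belongs to the interferon-stimulated oligoadenylate synthetase family, Tnf encodes a cytokine, Bax a pore former of apoptosis and Sqstm1 an autophagy receptor. The Bax probe read 2.34, 2.28 and 2.24 in Ctrl, 4.75, 4.70 and 4.74 at 1 dpi, and 3.13, 3.24 and 3.27 at 3 dpi, and Oasl2 read 2.16, 2.17 and 2.13, then 4.40, 4.34 and 4.36, then 2.90, 2.86 and 2.82. Both were high at 1 dpi and in between at 3 dpi, the order seen for Gbp2, with rises at 1 dpi of 2.44 (SE 0.06) for Bax and 2.22 (SE 0.06) for Oasl2. The rises of the others were smaller: 1.41 (SE 0.06) for Tnf, 1.53 (SE 0.06) for Sqstm1 and 1.91 (SE 0.07) for 4930599N23Rik. That shared order follows from the choice of these genes, which were picked by their rise at 1 dpi and their likeness to Gbp2.

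Promoter sequence was available for 5 of the 10 members, those on chromosome 3, in a RefSeq table of the assembly GRCm38.p6, while Gbp4, Gbp6, Gbp8, Gbp9 and Gbp10 had no entry. Both strands of the window from 250 bases before to 50 bases after each annotated start were searched for GAAANNGAAA, the core of the interferon-stimulated response element, and for TTCNNNGAA, the gamma-activated site. Of 32851 promoters of this length, 1131 (3.44%) hold the first motif and 2726 (8.30%) the second. All 5 members with a sequence hold the first, each on the minus strand, where it reads TTTCNNTTTC on the printed strand, and Gbp5 and Gbp7 also hold the second. The 250 bases before each start are printed because these members were measured together, plus strand, 5′ to 3′, with every match in capitals. Gbp5 lies at chr3:142496684-142496933, Gbp7 at chr3:142530086-142530335, Gbp3 at chr3:142559794-142560043, Gbp2b at chr3:142594597-142594846 and Gbp2 at chr3:142620413-142620662.
Gbp5: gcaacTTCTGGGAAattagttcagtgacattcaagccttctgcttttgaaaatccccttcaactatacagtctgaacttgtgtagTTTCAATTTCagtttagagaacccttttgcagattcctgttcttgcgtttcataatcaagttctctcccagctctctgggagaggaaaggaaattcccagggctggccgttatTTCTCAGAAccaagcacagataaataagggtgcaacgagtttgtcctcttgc
Gbp7: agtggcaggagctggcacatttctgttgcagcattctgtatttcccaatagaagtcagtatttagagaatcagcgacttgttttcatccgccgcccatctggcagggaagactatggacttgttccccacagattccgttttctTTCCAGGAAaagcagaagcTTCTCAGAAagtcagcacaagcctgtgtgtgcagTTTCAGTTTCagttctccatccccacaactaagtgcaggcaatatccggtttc
Gbp3: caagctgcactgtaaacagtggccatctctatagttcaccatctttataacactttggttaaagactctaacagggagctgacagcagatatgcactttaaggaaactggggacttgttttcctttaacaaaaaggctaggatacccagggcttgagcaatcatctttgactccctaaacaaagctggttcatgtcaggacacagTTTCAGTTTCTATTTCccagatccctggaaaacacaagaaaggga
Gbp2b: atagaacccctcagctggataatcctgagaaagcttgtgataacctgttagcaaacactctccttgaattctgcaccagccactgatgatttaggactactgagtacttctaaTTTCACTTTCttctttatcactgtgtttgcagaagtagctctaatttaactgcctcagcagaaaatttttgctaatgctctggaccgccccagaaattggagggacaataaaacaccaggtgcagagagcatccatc
Gbp2: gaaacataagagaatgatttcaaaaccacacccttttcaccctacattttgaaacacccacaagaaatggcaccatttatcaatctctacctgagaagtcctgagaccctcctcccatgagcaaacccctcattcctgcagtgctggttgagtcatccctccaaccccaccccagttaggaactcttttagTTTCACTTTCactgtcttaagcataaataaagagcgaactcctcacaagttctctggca

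In Gbp2 the match to the first motif lies 59 to 50 bases before the start, in Gbp7 53 to 44 and in Gbp5 165 to 156 bases before it. Gbp3 has a pair of overlapping matches, from 45 to 36 and from 39 to 30 bases before the start, and a later start of Gbp3, also in the table, has none. In Gbp2b the match lies 137 to 128 bases before the start. The second motif, which reads the same on both strands, stands 245 to 237 and 52 to 44 bases before the start of Gbp5, and 106 to 98 and 87 to 79 bases before that of Gbp7. A match to these letters is a description and does not show that a factor bound there. Members with a match included Gbp2 and 1 Gbp5 probe, which were called at 1 dpi by a wide margin, Gbp7, called by a narrow one, Gbp3, not called, and Gbp2b, not above background.

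**Figure D3:**
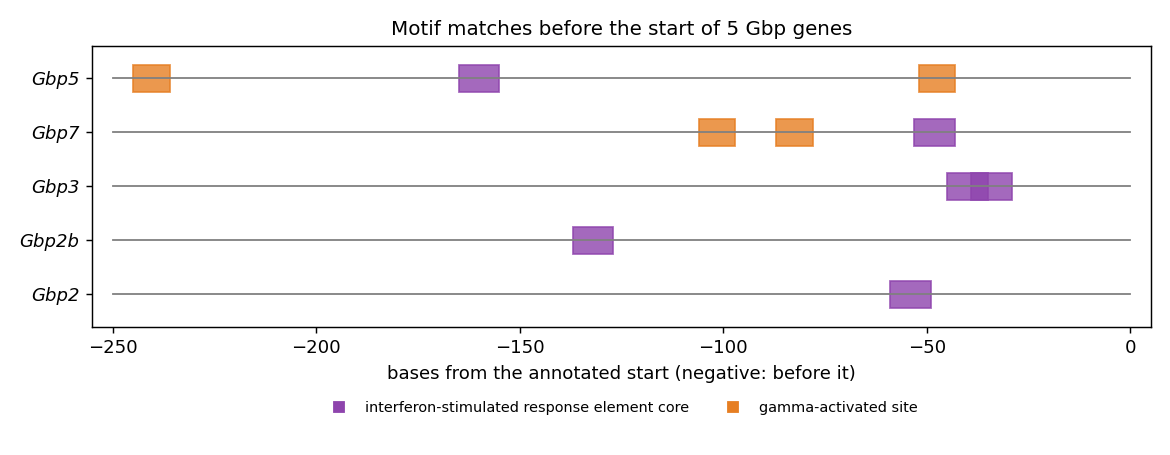
Distance in bases from the annotated start of matches to GAAANNGAAA (purple) and TTCNNNGAA (orange) in the 250 bases before 5 Gbp genes, the first of the 2 listed starts being drawn for Gbp3. Each gene has at least 1 match to the first motif, and those of Gbp2, Gbp7 and Gbp3 lie within 59 bases of the start.

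Of the interferon ligands and receptors, 10 of 13 genes on the list could be tested. Higher calls numbered 3 at 1 dpi, 1 at 3 dpi and 0 between the time points, and lower calls 0, 0 and 1. The list's median was 0.61, 0.41 and -0.04 in that order, beside 0.22, 0.07 and -0.13 over all probes. Ifnb1, which encodes the type I ligand interferon beta, read -7.06, -6.73 and -6.96 in Ctrl, all not well above background, then -3.98, -4.27 and -3.69 at 1 dpi and -6.03, -6.42 and -6.02 at 3 dpi. It was visible on every irradiated array and highest at 1 dpi, at least 6.02-fold above Ctrl (adjusted p = 1.2e-05), and it fell by 2.18 from 1 to 3 dpi (SE 0.17, adjusted p = 8.9e-05). With normexp and quantile normalization neither was called, at 0.75 and -0.67.

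Ifng, the type II ligand and the strongest known inducer of GBPs, had another course. It read -2.71, -2.87 and -2.87 in Ctrl, -1.46, -1.43 and -1.64 at 1 dpi, and -0.53, -0.72 and -0.58 at 3 dpi. The 3 dpi arrays were highest and no groups overlapped, with a rise of 1.30 at 1 dpi (SE 0.09, adjusted p = 2.3e-05), a larger one of 2.21 at 3 dpi (SE 0.09, adjusted p = 1.7e-06), and 3 dpi differed from 1 dpi by 0.91 (SE 0.09, adjusted p = 0.00021). The call at 1 dpi was lost with arrays scaled to their medians, where the change was 0.99, and with normexp and quantile normalization, where it was 0.92. Ifna1, a type I ligand, read -5.08, -4.09 and -4.11 in Ctrl, -2.99, -3.32 and -3.48 at 1 dpi, and -3.93, -4.14 and -3.95 at 3 dpi, and its rise of 1.16 at 1 dpi (SE 0.26, adjusted p = 0.0073) leaned on the low Ctrl replicate 1, without which it was 0.84 and not called, as with array median scaling (0.84), quantile normalization (0.78) and normexp with quantile normalization (0.43). Ifna2, Ifnk and Ifnl3 differed by 0.95 (SE 0.46, adjusted p = 0.11), -0.38 (SE 0.22, adjusted p = 0.17) and 0.60 (SE 0.41, adjusted p = 0.24) at 1 dpi and by 0.52, 0.06 and 0.13 at 3 dpi, and were not called in any comparison, although Ifna2 was at 1 dpi without Ctrl replicate 3 (1.35). Ifna4 was below background on all 9 arrays, Ifne was above it on 1, and Ifnl2 had no probe.

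The receptor genes changed little. At 1 dpi the differences were 0.62 for Ifnar1 (SE 0.07, adjusted p = 0.00025), -0.27 for Ifnar2 (SE 0.08, adjusted p = 0.023), 0.13 for Ifngr1 (adjusted p = 0.29) and -0.10 for Ifngr2 (adjusted p = 0.44). At 3 dpi they were 0.41, 0.04, 0.26 and 0.50, and none was called. The Ifnar1 value is that of the brightest of 4 probes, whose changes at 1 dpi ran from -0.04 to 0.64.

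Of 12 genes that carry the interferon signal to GBP promoters or curb it, 3 were called higher at 1 dpi, 0 at 3 dpi and 0 between the time points, while lower calls numbered 0, 0 and 2. Beside the calls of every list here, the shares of all probes called higher were 11.6%, 6.58% and 3.74% in the same order, and those called lower 3.01%, 1.86% and 5.03%. The median of the 12 genes was 0.16, 0.08 and -0.06. Irf1, whose product binds interferon-stimulated response elements, read 3.51, 3.44 and 3.36, then 4.91, 4.96 and 4.89, then 3.40, 3.25 and 3.31 in the order Ctrl, 1 dpi and 3 dpi. Its 3 dpi arrays overlapped with Ctrl, after a rise of 1.48 (SE 0.07, adjusted p = 3.7e-06) and a fall by 1.59 (SE 0.07, adjusted p = 9.6e-06). Stat2 rose by 1.04 at 1 dpi (SE 0.08, adjusted p = 3.2e-05), a call that was lost with arrays scaled to their medians (0.72) and relative to the median of all probes (0.81). Usp18, an interferon-induced brake on the receptor, rose by 2.09 (SE 0.06, adjusted p = 7e-07).

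The other IRF genes on the list were not called in any comparison. At 1 dpi Irf9, a partner of STAT2, differed by 0.32 (SE 0.06, adjusted p = 0.002), Irf2 by -0.25 (SE 0.08, adjusted p = 0.022) and Irf8 by -0.33 (SE 0.07, adjusted p = 0.0055). Jak1, Jak2 and Tyk2, the kinases at the receptors, differed by 0.04, -0.12 and 0.02 and were not called. The probes of Jak2 ran from -0.12 to 0.84 at 1 dpi and from -0.82 to 0.18 between the time points, with 0 called. So the course of Irf1, high at 1 dpi and overlapping with Ctrl at 3 dpi, was also that of Gbp7, whereas Gbp5 A_52_P327664 was still above Ctrl at 3 dpi, Gbp6 stayed high and Gbp8 rose late.

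**Figure D4:**
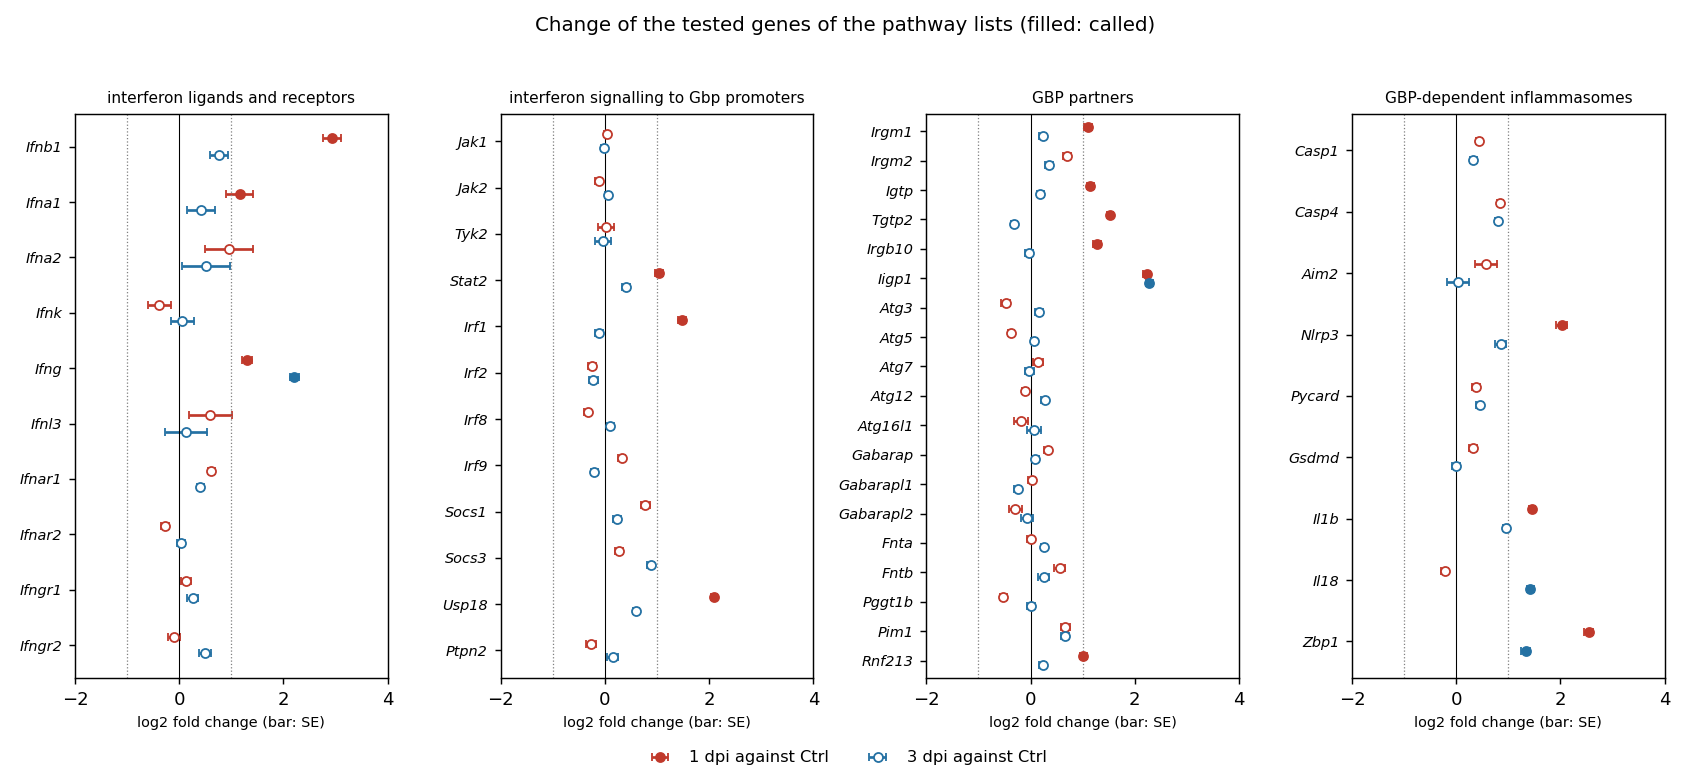
Log2 fold change at 1 dpi (red) and 3 dpi (blue) against Ctrl for the tested genes of the interferon, GBP partner and inflammasome lists, with SE as bars, filled points for called genes and dotted lines at a 2-fold change. Ifng, Iigp1 and Zbp1 were called at both times and Il18 at 3 dpi alone, and the other genes called at 1 dpi were not called at 3 dpi. The points of Ifnb1 rest on Ctrl signals that were not well above background.

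GBP partners are the immunity-related GTPases, the autophagy conjugation machinery that loads GBPs on vacuoles, and the enzymes that add lipid anchors. Of 21 genes listed, 19 could be tested. Those called higher were 6 at 1 dpi, 1 at 3 dpi and 0 between the time points, those called lower 0, 0 and 2, and the medians were 0.33, 0.16 and -0.16. All 6 called at 1 dpi are interferon-inducible: Iigp1, Tgtp2, Irgb10, Igtp and Irgm1 are immunity-related GTPases, and Rnf213 encodes a ubiquitin ligase. Iigp1 read -0.39, -0.54 and -0.45 in Ctrl, 1.76, 1.72 and 1.85 at 1 dpi, and 1.85, 1.80 and 1.83 at 3 dpi. Its 6 irradiated arrays were level with each other and above Ctrl, with changes of 2.23 (SE 0.07, adjusted p = 5.7e-07) and 2.28 (SE 0.07, adjusted p = 3.8e-07). Its other probe did not stay level: it changed by 1.62 at 1 dpi and by 0.60 at 3 dpi, the latter not called. That probe was called lower at 3 dpi against 1 dpi (-1.03).

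Tgtp2 was no longer high at 3 dpi. It read 2.91, 2.79 and 2.73 in Ctrl, 4.32, 4.35 and 4.36 at 1 dpi, and 2.48, 2.52 and 2.47 at 3 dpi, so the late arrays were the lowest of the 9. It rose by 1.53 (SE 0.06, adjusted p = 2.4e-06) and fell by 1.86 from 1 to 3 dpi (SE 0.06, adjusted p = 5.7e-06). At 1 dpi Irgb10 rose by 1.28 (SE 0.08, adjusted p = 1.7e-05) and Igtp by 1.15 (SE 0.07, adjusted p = 1.8e-05), and both calls were lost with arrays scaled to their medians (0.96 and 0.83). The genes for autophagy conjugation and prenylation were not called in any comparison by their brightest probes, while 1 of 3 Gabarap probes was called lower at 3 dpi against 1 dpi (-1.05). Scaling to array medians left 2 of the 6 calls of this list, and quantile normalization left 5.

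Of 9 genes for the inflammasomes that GBPs promote, 3 were called higher at 1 dpi, 2 at 3 dpi and 1 between the time points, with 0, 0 and 2 lower and medians of 0.57, 0.80 and -0.32. Zbp1, a sensor of nucleic acids in the Z form, read 0.40, 0.19 and 0.07 in Ctrl, 2.80, 2.76 and 2.72 at 1 dpi, and 1.64, 1.53 and 1.48 at 3 dpi, in 3 separate steps. Its change was 2.54 at 1 dpi (SE 0.09, adjusted p = 1.5e-06), against 1.33 at 3 dpi (SE 0.09, adjusted p = 3e-05). Nlrp3, the sensor of its inflammasome, rose at 1 dpi by 2.02 (SE 0.11, adjusted p = 8.9e-06), and Il1b, a cytokine released through it, by 1.45 (SE 0.06, adjusted p = 2.1e-06). Il18, the other such cytokine, differed by -0.22 at 1 dpi (adjusted p = 0.03) and was called at 3 dpi, at 1.42 (SE 0.07, adjusted p = 5.1e-06), which is also when Gbp8 was high. Casp4, Casp1, Aim2, Pycard and Gsdmd were not called.

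Many of these genes are active in white blood cells, so markers of other marrow cells were measured beside them, as signal summed over the list with the 75th percentile of the array set to 1. A sum gives most weight to genes with bright probes, so sums are compared only between arrays. Calls are those of the brightest probe of each gene, and other probes of some genes differed. Over all probes, 11.6% were called higher at 1 dpi and 6.58% at 3 dpi, and 3.01% and 1.86% were called lower. The 18 megakaryocyte genes summed to 184, 164 and 163 in Ctrl, 169, 157 and 154 at 1 dpi, and 179, 176 and 173 at 3 dpi, and the Pf4 probe gave 36.1% to 45.0% of the sum. By the brightest probe 0 were called in any comparison, but 1 of 3 Vwf probes was called lower at 3 dpi (-1.34) and at 3 dpi against 1 dpi (-1.14). With arrays scaled to their medians Gp1ba (-1.14) and Mmrn1 (-1.28) were called lower at 1 dpi. Under that scaling Gp6 (1.15) and Gp1ba (1.07) were called higher at 3 dpi against 1 dpi. In bulk samples, fewer cells of a type and less RNA per cell cannot be told apart.

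Macrophage markers moved with IR. The 13 genes summed to 64.9, 58.9 and 56.6 in Ctrl, 87.5, 82.9 and 87.3 at 1 dpi, and 158, 155 and 152 at 3 dpi, and the Csf1r probe gave 18.1% to 23.7%. Higher calls were made for 5 of the 13 at 1 dpi, 10 at 3 dpi and 6 between the time points, and lower calls for 1, 0 and 0. The call of Csf1r at 3 dpi (1.05) was lost with arrays scaled to their medians (0.92). It was also lost relative to the median of all probes (0.98) and without Ctrl replicate 3 (0.99). None of the 13 was below background on all arrays. This sum was highest at 3 dpi, like the Gbp8 probes, Ifng and Il18, and unlike Gbp2 and Irf1. The stromal and endothelial sums, given below, were highest at 3 dpi as well. Fcgr1, an Fc receptor that interferon also induces, read -0.87, -1.03 and -1.02 in Ctrl, 1.59, 1.43 and 1.50 at 1 dpi, and 1.75, 1.75 and 1.71 at 3 dpi, a course of high values on all 6 irradiated arrays as for Gbp6. Other markers differed from it at 1 dpi: Cd163 was called lower (-2.06), while Mrc1 (-0.54), Adgre1 (-0.20) and Vcam1 (-0.14) were not called. C1qa and Mertk were called against Ctrl at 3 dpi (2.37 and 1.91) and not at 1 dpi (0.39 and 0.48).

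T and NK cell genes, the usual source of Ifng, summed to 32.0, 34.1 and 32.4 in Ctrl, 46.9, 43.8 and 44.1 at 1 dpi, and 41.5, 37.6 and 36.5 at 3 dpi, of which Nkg7 made 80.4% to 88.9%. Of 11, 2 were called higher at 1 dpi and 4 at 3 dpi, and 0 lower at either time. The calls at 1 dpi depended on the setting: Gzma (1.19) was lost with arrays scaled to their medians (0.88) and relative to the median of all probes (0.97), and Ncr1 (1.02) was kept in 13 of 21 alternatives. They depended on the probe as well, since dimmer probes of Cd3e (1.22), Cd8a (1.82) and Klrb1c (up to 1.06) were called higher. Those called at 3 dpi were Gzma (2.23), Klrb1c (1.97), Ncr1 (1.77) and Cd3g (1.74), genes of NK cells apart from the last, which encodes a T cell receptor subunit. Of these Ncr1 was lost with normexp and quantile normalization (0.80). Trac moved the other way, by -0.73 at 1 dpi and -0.64 at 3 dpi, and with arrays scaled to their medians it was called lower at 1 dpi (-1.05). Neutrophil genes had sums of 1190, 1290 and 1270 in Ctrl, 2110, 1980 and 1950 at 1 dpi, and 1330, 1190 and 1250 at 3 dpi, Mpo making 16.2% to 20.3%. On this scale the sums were highest at 1 dpi, but the calls and the median of the list depended on the scaling. At 1 dpi 2 of 11 were called higher and 0 lower, at 3 dpi 0 in either direction, and both calls, S100a8 and S100a9, were lost with array median scaling, with quantile normalization and relative to the median of all probes. The list's median at 1 dpi was 0.56, against -0.03 with quantile normalization.

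**Figure D5:**
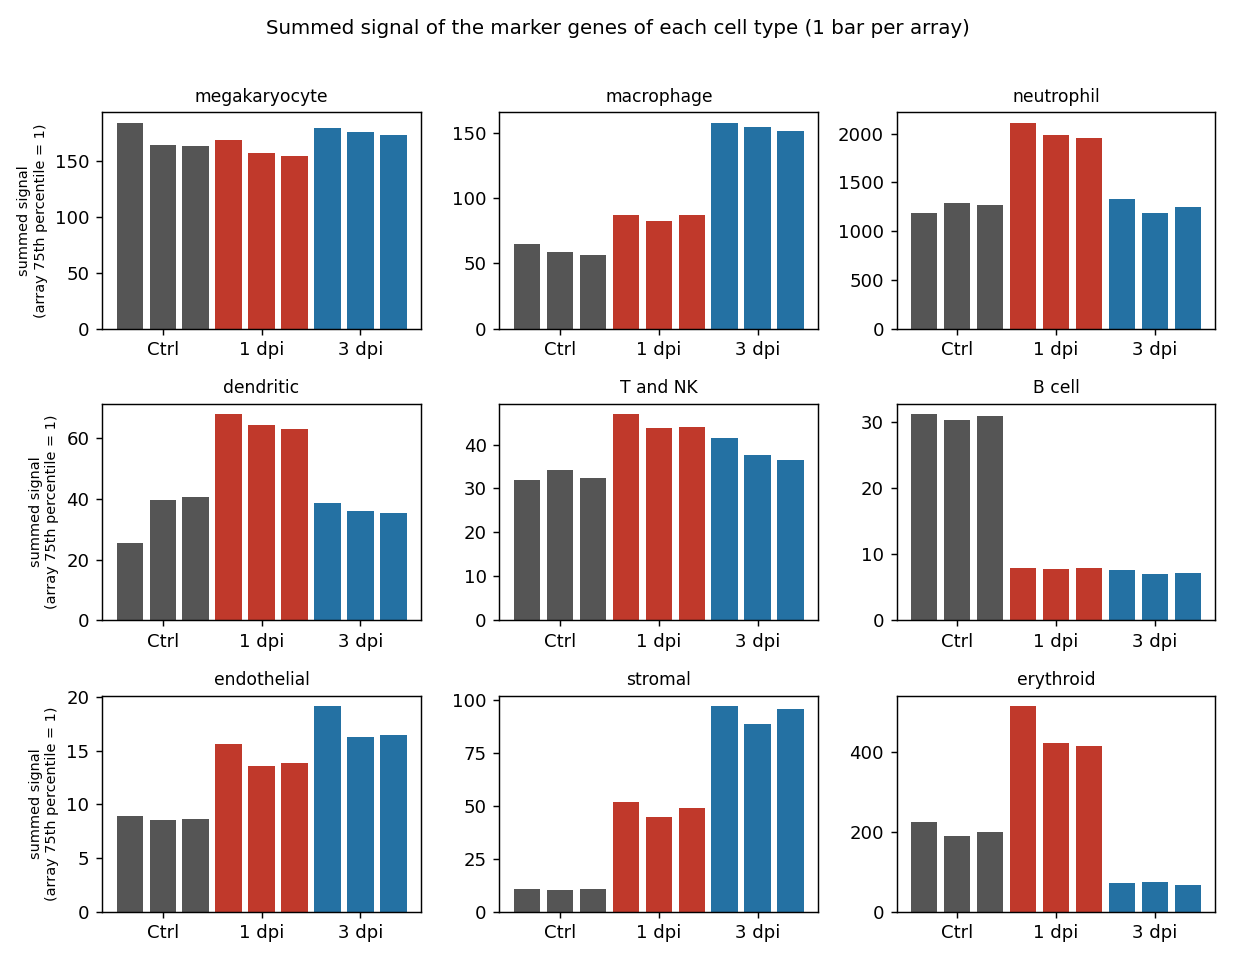
Summed signal of each marker list, 1 bar per array, with the 75th percentile of the array set to 1 and the axis from 0. Megakaryocyte sums stayed between 154 and 184. Macrophage, stromal and endothelial sums were highest at 3 dpi, neutrophil, dendritic, erythroid and T and NK sums at 1 dpi, and B cell sums in Ctrl.

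Dendritic cell genes summed to 25.3, 39.7 and 40.5 in Ctrl, 67.9, 64.3 and 62.9 at 1 dpi, and 38.7, 36.0 and 35.4 at 3 dpi, but Siglech made 50.9% to 73.1% of that, and of 8 tested those called at 1 dpi were 2 higher and 3 lower, those at 3 dpi 0 and 2. The 3 Siglech probes disagreed at 1 dpi, from -1.61 to 1.09, with 1 called higher and 1 lower, and the higher call was kept in 14 of 21 alternatives and lost without Ctrl replicate 1 (0.70). Xcr1, also on the list, was below background on all 9 arrays. B cell genes fell from 31.1, 30.3 and 30.9 in Ctrl to 7.91, 7.69 and 7.88 at 1 dpi and 7.60, 6.98 and 7.18 at 3 dpi, with Cd79b at 36.7% to 62.0%, and 8 of 10 were called lower, 0 higher, at each time.

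Endothelial genes summed to 8.89, 8.55 and 8.65 in Ctrl, 15.6, 13.6 and 13.9 at 1 dpi, and 19.2, 16.3 and 16.5 at 3 dpi, with Egfl7 at 34.2% to 60.9%, and 5 of 10 were called higher at 1 dpi and 7 at 3 dpi, 0 lower. Of the calls at 1 dpi, Kdr was lost with arrays scaled to their medians (0.92), as was Flt4 (0.89), which changed by 0.63 with quantile normalization. With normexp and quantile normalization Flt4 changed by 0.15 at 1 dpi and by 0.56 at 3 dpi, in place of 1.21 and 2.15. It was then called at neither time. Stromal genes had a mean sum of 10.5 (SD 0.241) over the 3 Ctrl arrays. They summed to 51.9, 44.8 and 48.8 at 1 dpi and 97.1, 88.6 and 95.7 at 3 dpi, with Cxcl12 at 28.6% to 45.3%. Of 10, 6 were called higher at each time and 0 lower, while Pdgfrb differed by -0.40 at 1 dpi and -0.39 at 3 dpi. The call of Lum at 1 dpi (1.49) was lost with normexp and quantile normalization (0.65). Erythroid genes summed to 225, 190 and 199 in Ctrl, 515, 422 and 414 at 1 dpi, and 72.6, 73.2 and 67.4 at 3 dpi, with Hba-a1 at 39.8% to 47.2%. Of 8 tested, those called at 1 dpi were 2 higher and 4 lower, those at 3 dpi 0 and 7. The lower calls at 1 dpi were Ahsp (-7.61), Slc4a1 (-3.78), Klf1 (-2.09) and Epor (-1.28), so the higher sum at 1 dpi does not stand for the whole list. Both higher calls, Hba-a1 and Hba-a2 (1.34 each), were lost with quantile normalization (0.85 each). How much of the Gbp signals came from any of these cells was not tested.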

How the data were processed

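The 9 arrays are Agilent 1-colour arrays, although the study's methods describe another platform. The authors deposited spot intensity from Feature Extraction, not scaled between arrays, and a table of log2 values with 1 row per gene name, which the authors normalized by a method that is not stated and which served as an alternative. Of the deposited values, 0 columns per sample were left unused.

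Control and outlier spots were left out. Log2 intensity minus the array's 75th percentile was fitted with limma 3.58.1 (R 4.3.3, data.table at 1.17.8), in one model of 3 groups, on 44317 of 56605 probes, those with each array of some group well above background. Benjamini-Hochberg adjustment covered all probes tested. The fit was tested on simulated data with independent noise and planted changes. Those data held no shift between arrays, so the test does not bear on the choice of scaling. Against a group in the background, a bound replaces the fold change. An exact permutation test of 3 arrays against 3 cannot go below p = 0.1. Members and lists were chosen with earlier results of these data known. In the signalling and erythroid lists 1 gene each is not reported here. Values are given for all members, for the ligand, receptor, Stat2 and IRF genes that are listed and tested, for the 4 called genes of each other pathway list with the largest change at 1 dpi, and for the 5 genes most like Gbp2. The brightest probe stood for a gene outside the family, and other genes were named after their values were seen. Alternatives covered scaling, background correction (normexp, followed by quantile normalization), filter, probe choice, minimum fold, blocks, test and single arrays. Figures used matplotlib 3.10.9 (Python 3.11.15).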

Additional observations from a re-analysis of the deposited data

Results flagged for a closer look

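In 5 family probes the effect of IR differed between the time points by the limma test of 3 dpi against 1 dpi and by at least 2-fold, with the same 3 arrays per group. The log2 difference was -1.87 for Gbp2 (A_51_P203955), -1.48 for Gbp5 (A_52_P327664) and -1.45 for the shared probe named Gbp9 (A_52_P344949), all lower at 3 dpi. It was 1.41 and 1.44 for the Gbp8 probes A_51_P327405 and A_55_P2179599, both higher at 3 dpi.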

How the results depend on the processing

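With single arrays left out, 5 to 6 family probes were called at 1 dpi, 3 to 4 at 3 dpi and 5 to 6 between the time points, and all probes called ran from 5276 to 7575, 3413 to 3956 and 3458 to 4158. Gbp7 was lost at 1 dpi without Ctrl replicate 2, Ctrl replicate 3 or 1 dpi replicate 3 (0.95, 0.95 and 1.00). It was gained at 3 dpi against 1 dpi without 3 dpi replicate 3 (-1.01). Leaving out Ctrl replicate 1, which leaves 1 slide, kept all 6, 3 and 5 family calls and added Gbp4 at 3 dpi. A replicate block, tried although replicate numbers do not pair arrays (r of -0.09 to 0.13), gave the same 6, 3 and 5. With slide as a random block these were 6, 4 and 5. Normexp with quantile normalization gave 5, 2 and 4, without Gbp7 at 1 dpi, Gbp8 A_55_P2179599 at 3 dpi and Gbp9 between the time points, while quantile normalization alone gave 6, 3 and 5.

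Without a minimum fold change 8 of 11 family probes were called at 3 dpi and 10 between the time points, beside 32.8% and 46.1% of all probes, which follows from the looser rule. With the brightest probe per gene 3 were called between the time points, since a probe each of Gbp5 and Gbp8 drops out. Without the filter 7 were called at 1 dpi, with Gbp2b added. Calls relative to the median of all probes were chosen after seeing the data and gave 5, 3 and 5.

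Every sign change was in a value that was not called, and the cause was not tested. For Gbp5 A_55_P2145059 these were -0.12, -0.05 and 0.07 with array median scaling in the order 1 dpi, 3 dpi and 3 against 1 dpi, -0.03 at 1 dpi and 0.01 at 3 against 1 dpi relative to the median, and -0.02 at 3 dpi without Ctrl replicate 1. For Gbp7 at 3 dpi they were -0.08 with array median scaling, -0.03 relative to the median, and -0.02 and -0.03 without Ctrl replicate 2 or 3, within -0.03 to 0.17 over single arrays left out. For Gbp8 A_55_P2179599 at 1 dpi they were -0.31 with array median scaling, -0.32 with quantile normalization and in the deposited table, -0.19 with normexp and quantile normalization, -0.21 relative to the median, and -0.05, -0.01, -0.04 and -0.04 without Ctrl replicate 2, Ctrl replicate 3, 1 dpi replicate 2 or 1 dpi replicate 3, within -0.05 to 0.11.

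Of 6463 called at 1 dpi 79.3% were higher, against 45.1% with array median scaling, 51.2% with quantile normalization, 67% with normexp and quantile normalization and 49.8% in the deposited table. At 3 against 1 dpi 42.6% were higher, against 66.3%, 60.9% and 62.6% with array median scaling, quantile normalization and the deposited table, and at 3 dpi 78% against 67.6% with quantile normalization and 66.8% in the deposited table. Relative to the median of all probes the shares were 56.3% at 1 dpi and 57.7% at 3 against 1 dpi. Normexp with quantile normalization called 2205, 1451 and 1423 in place of 6463, 3741 and 3888. No minimum fold change gave 24688, 14528 and 20426. The deposited table, with 21698 rows tested, gave 3636 at 1 dpi and 2464 at 3 dpi. Other counts that moved were 6927 without the filter and 2570 with the brightest probes at 3 against 1 dpi, and 2358 at 3 dpi with probes above background on all 9 arrays. With 3 arrays per group, only large changes relative to the spread are resolved, and probes near background, such as Gbp6, Gbp9 and Ifnb1, gave smaller changes with normexp and quantile normalization. The methods' t-test kept all 6, 3 and 5 family calls.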
